A study of Mus musculus with 12 samples.

Results

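The Dlk1-Dio3 region of mouse chromosome 12 carries one of the densest groups of miRNA genes in the genome, and its distal part runs from Mir379 to Mir410 at the non-coding gene Mirg. Members were taken by name from the deposited count table, as every row whose miRNA number is one of 34 numbers given to this group, with any letter and any arm. This gave 73 of 1929 rows, from 38 hairpins. Of the 73, 37 were 3p arms, 35 were 5p arms and 1, miR-496b, was listed without an arm.

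The samples are small RNA libraries of C57BL/6 liver, in a model of hepatic fibrosis made with carbon tetrachloride (CCl4), a solvent that injures hepatocytes. All animals received CCl4 by intraperitoneal injection. One group of 6 also received PZH daily by intragastric dosing, the traditional Chinese medicine Pien Tze Huang, and the other group of 6 received double distilled water in its place. The labels used here give no age, sex or PZH dose, and no uninjured liver is among the samples, so water-treated animals stand for injury and not for health. The labels number the liver samples without stating that each came from a separate mouse. The p-values weigh the difference between groups against the spread between these samples. They would be too small if samples shared a mouse.

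The region is imprinted. The long non-coding transcripts Meg3, Rian and Mirg, and the miRNAs cut from them, are made from the maternal chromosome, while Dlk1, Rtl1 and Dio3 are made from the paternal one. In adult mice these miRNAs are best known from the brain, where Mef2 drives them in active neurons, and they are scarce in adult liver. Mice that lack the miR-379 to miR-410 group have trouble in adapting hepatic glucose production at birth, and hepatic miR-379 is known to respond to glucocorticoids. A miRNA hairpin yields a 5p and a 3p arm, and each arm chooses its target mRNAs mainly through its seed, bases 2 to 8 from its 5′ end.

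By the GENCODE annotation of GRCm38, the build named in the submitters' processing notes, 37 of the 38 hairpins (72 members) lay between the start of Mir379 and the end of Mir410, chr12:109709060-109743795, a span of 34.74 kb. Mirg itself covers chr12:109729764-109749460. Of the 37 hairpins, 25 with 48 members lay upstream of the annotated Mirg gene, and 12 with 24 members lay within it, 8 overlapping an exon and 4 in introns. All are on the plus strand except Mir299b, which lies opposite Mir299a. Mir496b lies on chromosome 19 at chr19:16314892-16315004, so miR-496b shares the name of a member and not the place. It was too low to be tested.

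The mature sequences of the 10 most abundant members are shown because they held 83.8% to 86.8% of the counts of the group in every library. They are in genome order, from RefSeq for GRCm38.p6, 5′ to 3′, with the seed in capitals.
miR-379-5p: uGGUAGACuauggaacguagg
miR-411-5p: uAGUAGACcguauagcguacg
miR-494-3p: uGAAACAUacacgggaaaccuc
miR-376b-3p: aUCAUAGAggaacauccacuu
miR-300-3p: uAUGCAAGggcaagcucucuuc
miR-134-5p: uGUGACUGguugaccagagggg
miR-377-3p: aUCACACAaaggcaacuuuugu
miR-541-5p: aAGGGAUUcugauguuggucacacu
miR-409-5p: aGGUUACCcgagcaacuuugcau
miR-369-3p: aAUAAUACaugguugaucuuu
No seed is shared among these 10.

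The tested members that did not pass the test of PZH against water are shown next, to set beside those that rose. miR-494-3p, given above, belongs with them, as do miR-376c-3p and miR-485-5p.
miR-329-3p: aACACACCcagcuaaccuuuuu
miR-679-5p: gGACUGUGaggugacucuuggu
miR-666-5p: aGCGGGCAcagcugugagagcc
miR-667-3p: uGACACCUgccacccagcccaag
miR-487b-5p: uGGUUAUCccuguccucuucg
miR-485-3p: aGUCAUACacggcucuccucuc
miR-154-5p: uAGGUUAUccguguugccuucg

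The group as a whole was a small part of the liver miRNA pool and held a larger share with PZH. It took 0.0839% ± 0.0123 of all counts in the water libraries (SD, n = 6, range 0.0618% to 0.0943%) and 0.191% ± 0.0480 in the PZH libraries (n = 6, range 0.134% to 0.243%). The groups did not overlap. As CPM, the counts scaled to a common library size with TMM factors and the level used from here on, the sum of members came to 855 ± 142 with water and 1885 ± 485 with PZH, 2.21-fold higher. These are descriptions of a sum over members, with no test. In a bulk sample, fewer cells of a type and less RNA per cell cannot be told apart, and the same holds for more of either.

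Of the 73 members, 40 had enough counts for the default filter of edgeR and were tested, and 33 had not. The filter asks for a minimum level in 6 libraries, which can be those of 1 group alone. Scarce members such as miR-543-3p, miR-487b-3p, miR-380-3p and miR-299a-5p met it through their PZH libraries. For these, entry to the test and the call draw on the same libraries. With PZH, 30 of the 40 rose at a Benjamini-Hochberg adjusted p under 0.05 in edgeR's quasi-likelihood test (n = 6 against 6), against 9.88% of all 607 miRNAs tested. None fell, against 11.4% of all miRNAs tested, and by edgeR no member had an unadjusted p under 0.05 in the downward direction. DESeq2, which gave an adjusted p to 49 members, also called none lower and the same 30 higher. That was against 6.47% of the 1144 miRNAs it tested. Of the 40 members, limma-voom called 0 lower and 29 higher, against 9.39% of all miRNAs it tested. The log2 fold change was positive in 38 of 40 members, against 45.1% of all miRNAs tested. Its median was 1.14 over the 40 members and -0.03 over all 607, and the 30 that rose ran from 0.62 to 2.30, with 22 of them at 1 or more. In 18 members, all of them called, every PZH library was above every water library, which held for 5.11% of all miRNAs tested.

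**Figure D1:**
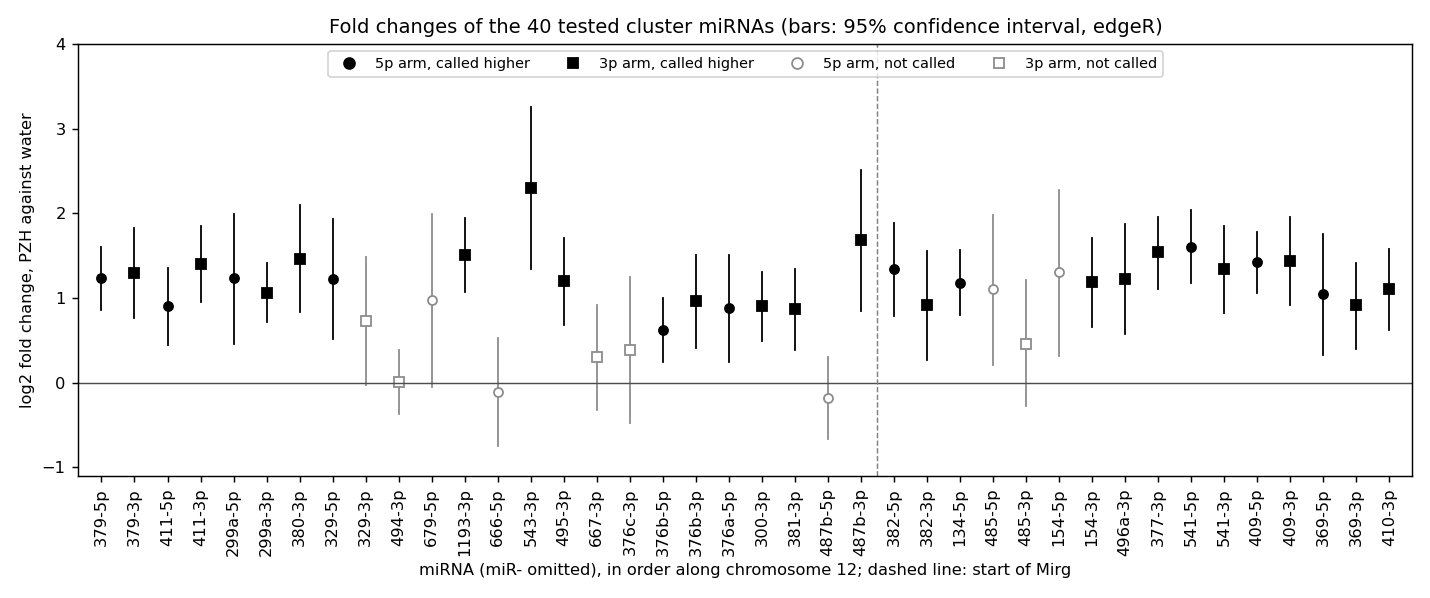
The log2 fold change of PZH against water (y axis) with its 95% confidence interval for each of the 40 tested members (x axis, in order along chromosome 12), as circles for 5p and squares for 3p arms, filled where called higher and open where not called, with a dashed line at the start of Mirg. The intervals of the 30 called members lie above 0, and miR-494-3p, miR-666-5p and miR-487b-5p sit at 0.01, -0.11 and -0.18.

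The most abundant member was miR-541-5p, from an intron of Mirg. Its lowest, median and highest levels were 107, 180 and 220 CPM in the water libraries and 356, 490 and 734 CPM in the PZH libraries. All 6 PZH libraries lay above the highest water library. The log2 fold change was 1.60 (SE 0.21), or 3.04-fold with a 95% confidence interval of 2.25 to 4.12, at an edgeR adjusted p of 5.90e-05. It made up 19.7% ± 2.36 of the counts of the group in water libraries and 27.4% ± 3.23 in PZH libraries (SD, n = 6 each), and the ranges of 17.0% to 22.1% and 23.6% to 32.7% did not overlap.

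Its neighbour miR-409-5p, from the next hairpin, had the lowest adjusted p of the group. The lowest, median and highest levels were 67.5, 88.8 and 124 CPM with water and 171, 225 and 315 CPM with PZH. The groups did not overlap, and the log2 fold change was 1.42 (SE 0.17, edgeR adjusted p = 2.71e-05). The other arm of this hairpin, miR-409-3p, was far less abundant, at 4.39, 7.91 and 10.1 CPM with water and 12.4, 20.6 and 27.9 CPM with PZH, again without overlap (log2 fold change 1.44, SE 0.24, edgeR adjusted p = 7.81e-04).

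Farther upstream in Mirg, miR-377-3p and miR-134-5p showed the same separation. miR-377-3p, studied in diabetic kidney for its effect on fibronectin, stood at 24.7, 28.8 and 33.3 CPM (lowest, median, highest) with water and at 54.4, 81.7 and 134 CPM with PZH. Its log2 fold change was 1.54 (SE 0.20, edgeR adjusted p = 7.09e-05). miR-134-5p, which limits dendritic spine growth in neurons by repressing Limk1, stood at 25.3, 45.2 and 56.6 CPM with water and at 72.7, 93.1 and 123 CPM with PZH. Its log2 fold change was 1.18 (SE 0.18, edgeR adjusted p = 3.13e-04). In both, water replicate 5 was the lowest library and PZH replicate 6 the highest.

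At the upstream end, miR-379-5p, the first member of the group and the one tied to glucocorticoids in liver, had 55.1, 62.6 and 95.7 CPM with water and 102, 155 and 196 CPM with PZH. The groups did not overlap, although water replicate 2 stood close to the lowest PZH library. The log2 fold change was 1.23 (SE 0.17, edgeR adjusted p = 1.51e-04). The next hairpin gave miR-411-5p, the second most abundant member, at 104, 167 and 179 CPM with water and 147, 287 and 425 CPM with PZH. Here PZH replicate 2 fell within the water range and the other 5 PZH libraries lay above it. The log2 fold change was 0.90 (SE 0.22, edgeR adjusted p = 0.00735), and the share of the group was 18.1% ± 1.04 with water and 15.2% ± 3.31 with PZH.

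The 3 remaining abundant members that rose had log2 fold changes near 0.9, and their groups lay closer. miR-376b-3p, of a family known for A-to-I editing within the seed and for effects on autophagy genes, had 14.3, 16.2 and 31.6 CPM with water and 24.3, 38.6 and 58.2 CPM with PZH (log2 fold change 0.96, SE 0.26, edgeR adjusted p = 0.0145). Water replicates 1 and 4, at 31.6 and 31.4 CPM, were above PZH replicates 1 and 4. miR-369-3p, known for binding AU-rich elements in the TNF message, had 11.9, 18.3 and 23.4 CPM with water and 19.9, 32.3 and 50.6 CPM with PZH (log2 fold change 0.91, SE 0.24, edgeR adjusted p = 0.0121). In this case PZH replicates 2 and 4 were within the water range. miR-300-3p had 9.84, 14.5 and 18.9 CPM with water and 19.4, 24.8 and 36.7 CPM with PZH, without overlap (log2 fold change 0.90, SE 0.19, edgeR adjusted p = 0.00352).

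**Figure D2:**
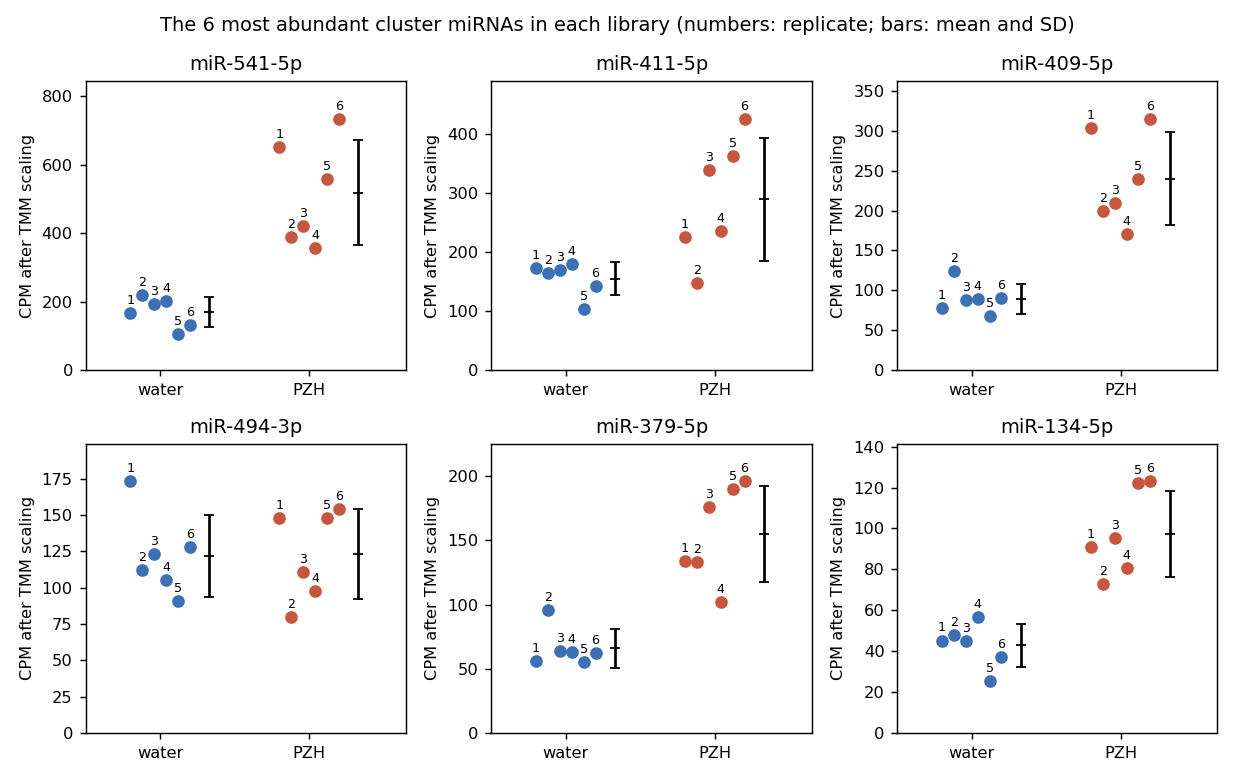
CPM after TMM scaling (y axis) in each library for the 6 most abundant members, with replicate numbers above the points and the group mean and SD beside them. All 6 PZH points lie above all 6 water points in miR-541-5p, miR-409-5p, miR-379-5p and miR-134-5p, PZH replicate 2 lies within the water range in miR-411-5p, and the groups overlap in miR-494-3p.

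**Figure D3:**
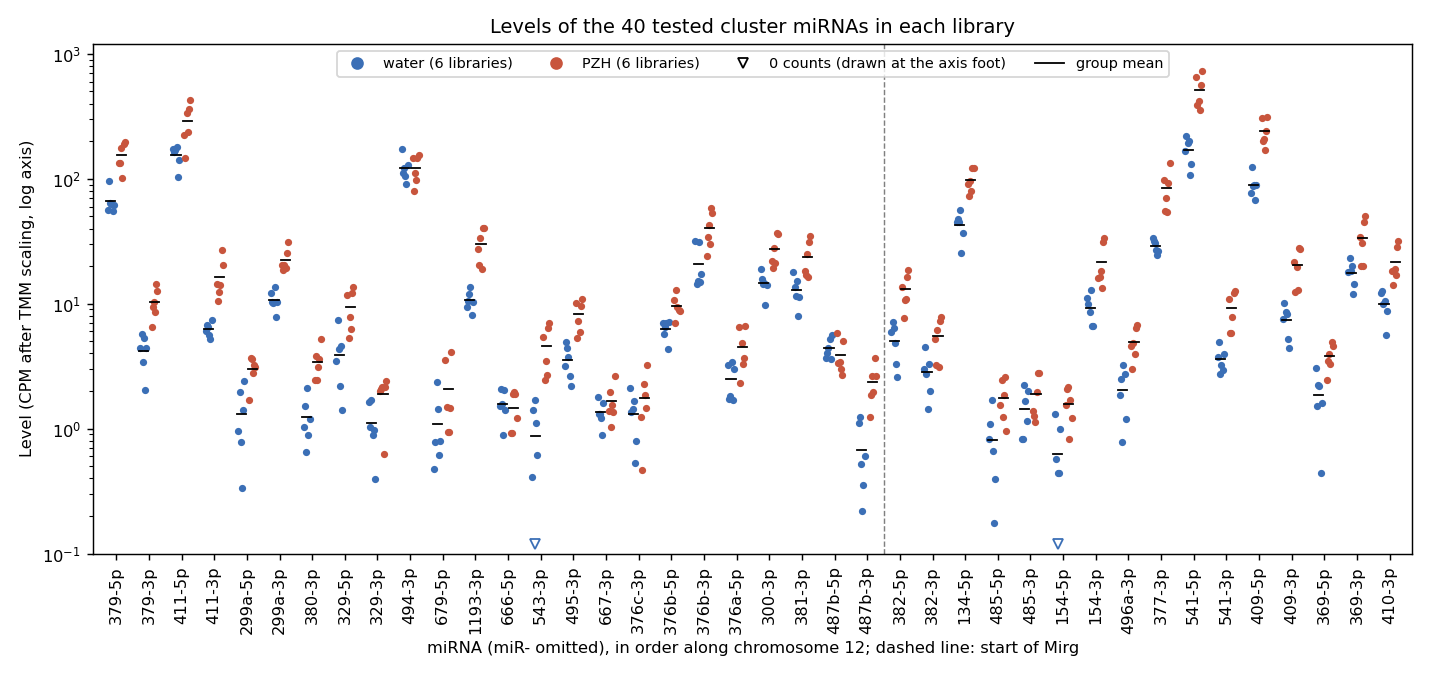
Levels of the 40 tested members in each library, in CPM on a log axis, with water libraries in blue, PZH libraries in red, group means as bars and libraries at 0 as open triangles at the axis foot. Members stand in order along chromosome 12, and PZH points lie higher in most of them, from miR-379-5p at one end to miR-410-3p at the other, while the groups overlap in miR-494-3p.

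Among members averaging 10 CPM or more, the 6 with the largest fold changes were miR-541-5p, miR-377-3p, miR-1193-3p, miR-409-3p, miR-409-5p and miR-411-3p. miR-1193-3p had 8.16, 10.5 and 13.5 CPM with water and 18.9, 30.5 and 40.7 CPM with PZH (log2 fold change 1.51, SE 0.21, edgeR adjusted p = 1.06e-04). miR-411-3p had 5.23, 6.32 and 7.39 CPM with water and 10.6, 14.3 and 26.7 CPM with PZH (log2 fold change 1.40, SE 0.21, edgeR adjusted p = 2.96e-04). Neither overlapped between groups. The largest fold change of any member belonged to a scarce one, miR-543-3p, which has been studied with miR-369-3p and miR-496 as a regulator of N-cadherin in neural development. It had 0, 0.863 and 1.70 CPM with water and 2.43, 4.44 and 7.0 CPM with PZH, a log2 fold change of 2.30 (SE 0.45, edgeR adjusted p = 0.00226). The 95% confidence interval of the fold ran from 2.54 to 9.59, and the water library at 0 was replicate 6, the shallowest of the 12. Without that library the log2 fold change was 2.13 (edgeR adjusted p = 0.00253). This member met the low-count filter through its PZH libraries. With low rows kept, its log2 fold change was 2.34 (edgeR adjusted p = 1.51e-05).

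Of the other members that rose, 5 are described below with the arms and seeds (miR-379-3p, miR-381-3p, miR-487b-3p, miR-495-3p and miR-410-3p). The remaining 12 had mean levels of 1.23 to 10.8 CPM with water and log2 fold changes from 0.62 in miR-376b-5p to 1.46 in miR-380-3p. miR-382-5p, studied in kidney fibrosis, rose from 5.05 ± 1.81 to 13.0 ± 4.05 CPM (SD, n = 6 each, log2 fold change 1.34, edgeR adjusted p = 0.00225). miR-154-3p rose from 9.34 ± 2.55 to 21.4 ± 8.52 CPM (log2 fold change 1.19, edgeR adjusted p = 0.00304), and miR-299a-3p from 10.8 ± 1.95 to 22.5 ± 4.91 CPM (log2 fold change 1.06, edgeR adjusted p = 3.53e-04). In these 3 and in miR-380-3p and miR-541-3p the groups did not overlap. Groups overlapped in the last 7. Of these, miR-329-5p and miR-496a-3p passed in every alternative in which they were tested. The calls of the other 5 were each lost when certain single libraries were left out. Over all 20 alternatives in which each was tested, miR-376a-5p and miR-382-3p lost the call in 11, miR-369-5p in 10, and miR-299a-5p and miR-376b-5p in 3.

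At an average of 10 CPM or more, 16 of 17 tested members rose, against 9.88% of all 607 miRNAs tested at any level. The share among all miRNAs at this level was not counted. The exception among the 17 members was miR-494-3p. It had 90.8, 117 and 173 CPM with water and 79.6, 129 and 154 CPM with PZH, from 14592 counts over the 12 libraries. The highest library was a water library and the lowest a PZH library, and the groups overlapped throughout. The log2 fold change was 0.01 (SE 0.18, 95% confidence interval -0.37 to 0.39, edgeR adjusted p = 0.971), an interval that lies below the 1.14 median of the tested members. With most other members higher, miR-494-3p went from 14.4% ± 2.88 of the counts of the group with water (range 11.2% to 18.5%) to 6.54% ± 0.635 with PZH (range 5.90% to 7.42%), without overlap. Its hairpin, chr12:109715318-109715402, lies between those of miR-329 and miR-679, and the hairpin of miR-1193, whose 3p arm rose, begins at base 109715671 of the same chromosome.

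The other 9 members that did not pass were scarce, 8 of them with a mean under 3 CPM over all libraries, where 5 of the 30 called members also lay. Only miR-487b-5p, at 3.64, 4.23 and 5.59 CPM with water and 2.70, 3.38 and 5.85 CPM with PZH, was above that level. Its log2 fold change was -0.18 (SE 0.23, 95% confidence interval -0.67 to 0.30, edgeR adjusted p = 0.682), and both the highest and the lowest library were PZH libraries. miR-666-5p had the only other negative value, at 0.884, 1.54 and 2.08 CPM with water and 0.924, 1.55 and 1.97 CPM with PZH. Its log2 fold change was -0.11 (SE 0.30, 95% confidence interval -0.75 to 0.53, edgeR adjusted p = 0.883).

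Intervals that reached 1 or nearly so were found for 7 positive members that did not pass, so a rise of the size seen in other members was within the error. miR-667-3p had 0.887, 1.31 and 1.78 CPM with water and 1.04, 1.47 and 2.66 CPM with PZH (log2 fold change 0.30, 95% confidence interval -0.32 to 0.91). miR-376c-3p had 0.532, 1.40 and 2.12 CPM with water and 0.463, 1.67 and 3.26 CPM with PZH (log2 fold change 0.39, -0.48 to 1.25). The groups overlapped in both, with 2 PZH libraries above the highest water library. miR-485-3p had 0.821, 1.41 and 2.22 CPM with water and 1.13, 1.68 and 2.81 CPM with PZH (log2 fold change 0.46, -0.28 to 1.21). miR-679-5p had 0.479, 0.790 and 2.36 CPM with water and 0.934, 1.48 and 4.10 CPM with PZH (log2 fold change 0.97, -0.05 to 1.99). In miR-679-5p water replicate 3 was above 4 of the 6 PZH libraries.

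For the last 3 of the uncalled members, at least 3 of 6 PZH libraries lay above every water library. miR-329-3p had 0.399, 1.01 and 1.70 CPM with water and 0.623, 2.11 and 2.41 CPM with PZH, and PZH replicate 4 alone lay within the water range. Its log2 fold change was 0.73 (SE 0.35, edgeR adjusted p = 0.171). miR-485-5p, with a log2 fold change of 1.10 (SE 0.42, edgeR adjusted p = 0.0776), had 0.177, 0.742 and 1.70 CPM with water and 0.966, 1.70 and 2.59 CPM with PZH. miR-154-5p, of a hairpin reported to be raised in fibrotic lung, had 0, 0.508 and 1.30 CPM with water and 0.831, 1.61 and 2.17 CPM with PZH. Its log2 fold change was 1.30 (SE 0.46, edgeR adjusted p = 0.0595). miR-485-5p and miR-154-5p were the 2 uncalled members with an unadjusted p under 0.05, 0.0189 and 0.0132. Both passed in at least 1 alternative: miR-485-5p without water replicate 3 (edgeR adjusted p = 0.0397), and miR-154-5p with limma-voom (adjusted p = 0.0474) and without water replicate 1 (edgeR adjusted p = 0.0258).

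The 33 untested members added 0.642% of the counts of the group. Their totals over the 12 libraries ran from 4 to 120 counts, and none exceeded 22 counts in a library. The 4 with most counts were miR-539-5p with 120, miR-376a-3p with 116, miR-377-5p with 90 and miR-544-3p with 84. Of the 33, 19 were 5p arms and 13 were 3p arms. The table holds no count of 1 in any cell, while 6775 cells hold 0 and 3049 hold 2, so detection in this table stands for 2 or more counts. Members were at 0 in 196 of their 876 cells.

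Both 5p and 3p arms were among the members that rose. Of 16 tested 5p arms, 11 passed, and the median of their 16 log2 fold changes was 1.14. Of 24 tested 3p arms, 19 passed, and the median of the 24 was also 1.14. Among all 607 miRNAs tested by edgeR, of any arm, 9.88% were called higher. In the 35 hairpins with both arms in the table, the 5p arm had more counts in 14 and the 3p arm in 21. The more abundant arm ranged from nearly all of the counts, as miR-134-5p at 99.7% and miR-494-3p at 99.9%, to a near balance in miR-485, where 45.0% were 5p. Both arms were tested in 12 hairpins: both rose in 8, 1 arm alone passed in 3 (miR-329, miR-487b and miR-154), and neither did in miR-485.

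With the arms of each hairpin summed before the fit, 28 hairpins were tested and 21 rose, against 8.82% of all hairpins tested by edgeR. The 7 that did not pass were miR-494, miR-679, miR-666, miR-667, miR-376c, miR-487b and miR-485. By position, 12 of 18 tested hairpins upstream of Mirg and 9 of 10 within it rose. The members showed a like picture: upstream of Mirg 17 of 24 rose, with a median log2 fold change of 0.97 (-0.18 to 2.30), and within Mirg 13 of 16 rose, with a median of 1.20 (0.46 to 1.60). Among all 607 miRNAs tested, 9.88% rose. The difference between the positions was not tested. Hairpins that did not pass stood directly beside ones that did, as miR-666 (log2 fold change -0.02, SE 0.30) beside miR-1193 (1.52, SE 0.22) and miR-543 (2.38, SE 0.46).

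The balance of arms was measured as the log2 ratio of 5p to 3p counts in 8 hairpins whose arms both averaged at least 20 counts. No ratio passed the adjusted threshold in limma (n = 6 against 6), against 8.03% of all hairpins tested in this way, and 1 of the 8 had an unadjusted p under 0.05. That was miR-411, whose 5p share averaged 96.0% ± 0.747 in water libraries and 94.4% ± 1.29 in PZH libraries (SD, n = 6 each). Its log2 ratio differed by -0.49 (SE 0.19, 95% confidence interval -0.89 to -0.09, limma adjusted p = 0.118), so that the scarcer 3p arm rose the more. PZH replicates 3 and 6, at 96.5% and 95.4%, lay within the water range of 95.1% to 96.9% and the other 4 PZH libraries below it. Without PZH replicate 3 the difference was -0.62 with a limma adjusted p of 0.0404. In the other 7 hairpins the differences ran from -0.38 in miR-376b (95% confidence interval -0.97 to 0.21) to 0.45 in miR-382 (-0.09 to 0.99).

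**Figure D4:**
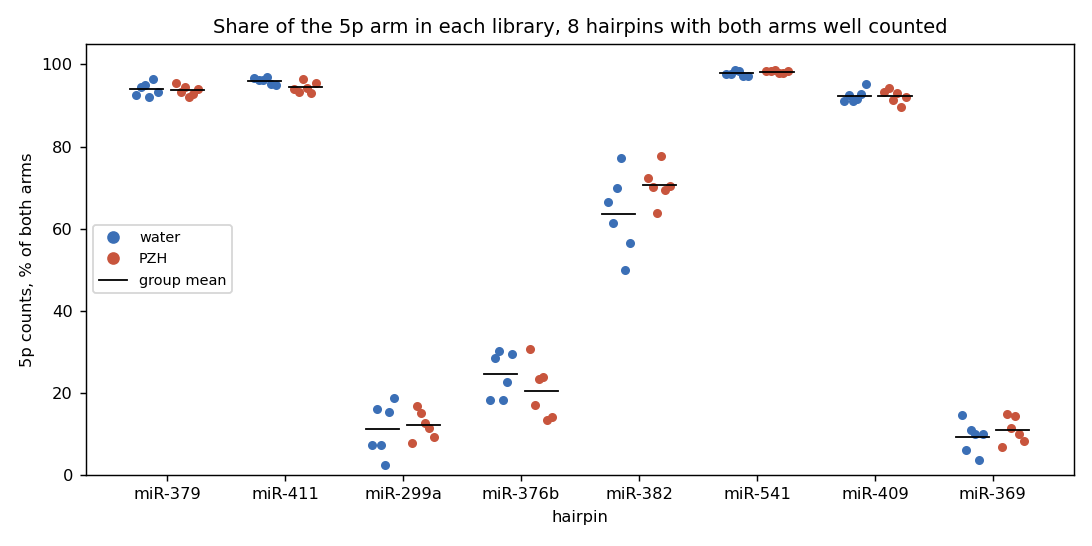
The 5p counts as a percentage of both arms in each library (y axis) for the 8 hairpins with both arms well counted, with the group mean as a bar. In 5 hairpins the 5p arm prevails and in 3 the 3p arm, in both groups, and miR-411 goes from a mean of 96.0% to 94.4%.

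The arms of miR-487b lay farther apart, at levels too low for the ratio test, so the difference between them was not tested. This hairpin is given as selected after its values were seen. Its 5p arm is the uncalled member described above, and its 3p arm went from 0.221, 0.561 and 1.25 CPM with water to 1.23, 2.31 and 3.71 CPM with PZH (log2 fold change 1.68, SE 0.39, edgeR adjusted p = 0.00606). The 5p share was 77.1%, 76.2%, 89.5%, 95.9%, 91.1% and 90.3% in water replicates 1 to 6. In PZH replicates 1 to 6 it was 82.6%, 64.4%, 56.2%, 60.4%, 42.1% and 65.6%. PZH replicate 1 was inside the water range and the other 5 PZH libraries were below it. The 3p arm held 179 counts over all 12 libraries, which limits the precision of these shares.

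By seed, the 69 members with a mature sequence fell into 64 seeds, so the group is made mostly of miRNAs with a seed of their own. Counts of every miRNA in the table with a given seed, inside or outside the group, were summed before the fit, which could be done for 1647 of the 1929 rows. Of the 64 seeds, 37 were tested and 27 rose, against 10.3% of all seeds and single rows tested by edgeR. Of the 30 tested seeds found in the group alone, 24 rose. Of the 7 that miRNAs elsewhere also carry, 3 rose, and the difference between these shares was not tested.

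Only 5 seeds were held by 2 or more members, and in 1 of them both members were tested. That is AUGUAAC, of miR-379-3p and miR-411-3p, whose sequences are shown because they differ at 2 of 22 bases and at none of the seed.
miR-379-3p: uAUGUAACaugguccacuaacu
miR-411-3p: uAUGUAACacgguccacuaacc
miR-379-3p rose from 4.21 ± 1.33 to 10.3 ± 2.87 CPM (SD, n = 6 each), with a log2 fold change of 1.29 (SE 0.25, edgeR adjusted p = 0.00215), beside 1.40 for miR-411-3p. The seed summed to 10.5 ± 1.80 CPM with water and 26.8 ± 8.50 CPM with PZH, a log2 fold change of 1.39 (SE 0.20, edgeR adjusted p = 1.38e-04). How the authors' counting split reads between such close copies is not given in the sources used here.

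Some other close copies in the group differ within the seed, as miR-300-3p given above and its neighbour miR-381-3p, at 3 of 22 bases with 1 in the seed.
miR-300-3p: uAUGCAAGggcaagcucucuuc
miR-381-3p: uAUACAAGggcaagcucucugu
They moved alike, miR-381-3p from 13.0 ± 3.47 to 23.8 ± 7.79 CPM (log2 fold change 0.87, SE 0.23, edgeR adjusted p = 0.0121) beside 0.90 for miR-300-3p. miR-543-3p and miR-495-3p differ at 4 of 22 bases with 2 in the seed, and miR-376b-5p and miR-376c-5p at 1 of 22 bases outside it. The untested miR-299b-3p and miR-299a-3p differ at 0 of the 18 bases compared. Values within each of these pairs may hold reads of the other.

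A seed can also be fed from elsewhere in the genome, and 2 cases stood out. They are given as selected after their values were seen. The seed AACAAAC of miR-495-3p is shared with miR-1192 of chromosome 19 and with miR-12200-5p of chromosome 5.
miR-495-3p: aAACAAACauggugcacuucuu
miR-1192: aAACAAACaaacagaccaaauu
miR-495-3p, one of a set of members whose inhibition promotes vessel growth after ischaemia in mice, rose from 3.52 ± 1.04 to 8.22 ± 2.37 CPM (log2 fold change 1.20, SE 0.24, edgeR adjusted p = 0.00281). miR-1192 fell, from between 5.89 and 16.4 CPM in the water libraries to between 1.79 and 4.88 CPM in the PZH libraries (log2 fold change -1.60, edgeR adjusted p = 9.29e-04). The group's part of this seed was 26.8% with water and 69.9% with PZH, while the sum over the seed had a log2 fold change of -0.25 (95% confidence interval -0.69 to 0.20, edgeR adjusted p = 0.489). The member passed the test as a single miRNA, and its summed seed did not.

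The seed ACACACC of miR-329-3p is shared with miR-362-3p of chromosome X.
miR-329-3p: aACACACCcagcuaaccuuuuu
miR-362-3p: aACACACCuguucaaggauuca
The level of miR-362-3p was 207 ± 10.2 CPM in water libraries and 189 ± 22.4 CPM in PZH libraries (edgeR adjusted p = 0.385), so miR-329-3p made up 0.540% of the seed with water and 1.01% with PZH. The sum had a log2 fold change of -0.09 (95% confidence interval -0.29 to 0.10). In the other shared seeds the part held by the group varied. GACUGUG, of miR-679-5p and miR-7221-3p, came to 62.2% from the group with water and 79.9% with PZH. GAGGUUG, of miR-377-5p and miR-672-5p, went from 29.0% to 86.4%, at levels too low to be tested. AUAUAAC of miR-410-3p, the last member of the group, is shared with miR-344d-3p and miR-344e-3p, and the group held 83.6% of it with water and 91.3% with PZH. Its sum rose by 1.0 on the log2 scale (edgeR adjusted p = 0.00327), close to the 1.10 of miR-410-3p alone. UCACCUG of miR-412-3p, an untested member, came nearly all from miR-1983.

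**Figure D5:**
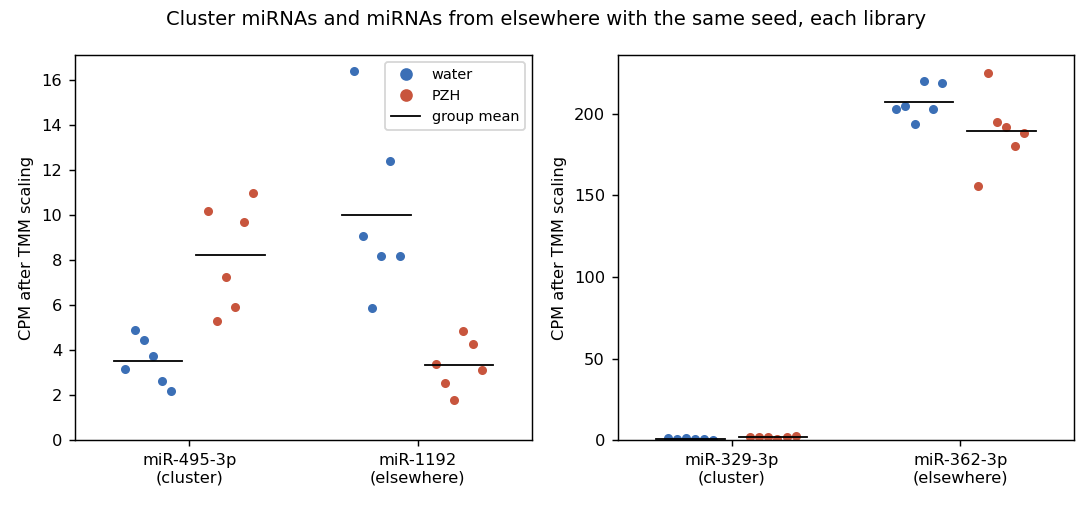
CPM in each library of miR-495-3p and miR-1192, which share a seed, and of miR-329-3p and miR-362-3p, which share another, with the group means as bars. miR-495-3p is higher and miR-1192 lower with PZH, and miR-362-3p is far above miR-329-3p in both groups.

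Libraries differed within groups in a way common to many members. PZH replicate 6 was the highest PZH library in 25 of the 40 tested members and PZH replicate 5 in 10, while PZH replicate 2 was the lowest in 17 and PZH replicate 4 in 12. Among water libraries replicate 5 was the lowest in 22 and replicate 2 the highest in 14. The sum of members was 2594 CPM in PZH replicate 6 and 2211 CPM in PZH replicate 5, against 1349 CPM in replicate 2 and 1378 CPM in replicate 4. It was 605 CPM in water replicate 5 and 777 to 993 CPM in the other 5 water libraries. With any single library left out, 26 to 30 members rose.

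Depth ran from 4961913 to 20211784 counts per library. Marker miRNAs were set beside the results because the group is best known outside the liver. The level of miR-122-5p, which defines hepatocytes, was 104137 ± 8000 CPM in the water group and 107905 ± 13911 CPM in the PZH group (edgeR adjusted p = 0.786), and the 6 hepatocyte markers summed to 221357 to 256415 CPM and 202898 to 264104 CPM. Of the 6 neural markers, 4 were tested, none rose and miR-137-3p fell (log2 fold change -0.57, edgeR adjusted p = 0.00606). The neuron-defining miR-124-3p had 0.497 ± 0.443 CPM in the water group and 0.742 ± 0.520 CPM in the PZH group, too low to be tested, and the neural markers summed to 112 to 145 CPM with water and 87.4 to 112 CPM with PZH. None of the 5 mesenchymal markers, such as miR-199a-5p and miR-143-3p of stellate cells and smooth muscle, was called, and their sum was 63446 to 92359 CPM with water and 52788 to 92619 CPM with PZH. Both endothelial miR-126a arms fell (sums 12863 to 17096 CPM and 10272 to 13900 CPM), as did 3 of 6 epithelial markers (938 to 2218 CPM and 865 to 1248 CPM). So did miR-223-3p among 4 leukocyte markers (3952 to 5680 CPM and 2925 to 5288 CPM) and miR-802-5p among the hepatocyte markers. None of the 2 muscle and 3 erythroid markers tested was called. These falls stand beside 11.4% of all 607 miRNAs tested by edgeR that were called lower. The part of these markers in the rise of the group was not tested.

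Of 35 listed Dlk1-Dio3 rows outside the distal group, 15 were tested, and 9 of these rose, against 9.88% of all miRNAs tested by edgeR. None fell and 6 did not pass. The 15 log2 fold changes were all positive, with a median of 1.11, and the other 20 rows were too low to be tested. miR-370-3p, cut from Rian, rose from 3.75 ± 1.75 to 15.9 ± 4.86 CPM (log2 fold change 2.06, edgeR adjusted p = 1.33e-04). miR-127-3p, which lies opposite Rtl1 and cleaves its message, rose from 45.3 ± 13.9 to 98.0 ± 33.0 CPM (log2 fold change 1.11, edgeR adjusted p = 0.00241). By contrast miR-434-3p had 18.5 ± 3.02 and 22.7 ± 8.65 CPM and did not pass (log2 fold change 0.29, edgeR adjusted p = 0.401), while its 5p arm rose by 1.40 on the log2 scale (edgeR adjusted p = 9.23e-04).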

How the data were processed

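The deposited table holds raw counts per mature miRNA for 12 liver libraries (6 water, 6 PZH), made by the authors and not normalized. The submitters' processing notes name cutadapt, FastQC, BWA, DESeq2 and GRCm38. How reads were counted, with which strand setting and which miRNA release, is not given in the sources used here. Members and lists were chosen with earlier results of these data known. Of the 1929 rows, the 607 kept by the default low-count filter were fitted with edgeR 4.0.16 (R 4.3.3, quasi-likelihood, TMM scaling). The p-values were adjusted by Benjamini-Hochberg over all rows tested. Summed hairpins and seeds used the same test. Arm ratios, log2((5p + 1)/(3p + 1)), used limma 3.58.1. Alternatives included DESeq2 1.42.0 and limma-voom. Scripts were tested on simulated data. Values in full were given for the 10 most abundant tested members, the 6 called members with the largest fold change at a mean of 10 CPM or more, and all 10 uncalled members. Sequences are from RefSeq (GRCm38.p6), matched by name for 69 of 73 members. SDs are spreads between libraries. The reads carry no molecular identifiers.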

Additional observations from a re-analysis of the deposited data

Results flagged for a closer look

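Among 98 groups of 6 libraries checked for a sample far from the rest, 2 held one, where chance alone flags about 1 in 20. For miR-379-5p, water replicate 2 stood at 95.7 CPM, and the next water library at 64.2 CPM. Without it the log2 fold change was 1.37 (edgeR adjusted p = 2.17e-05) in place of 1.23. For miR-329-3p, PZH replicate 4 stood at 0.623 CPM, and the next PZH library at 2.0 CPM. Without it the log2 fold change was 0.91 (edgeR adjusted p = 0.0579) in place of 0.73, still not past the threshold.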

How the results depend on the processing

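The 30 members that rose numbered 30 with RLE scaling, TMMwsp scaling, total counts, DESeq2 and robust edgeR, 29 with limma-voom and 27 when low rows were kept. Requiring 10 CPM in 6 libraries left 17 members to test and 16 rose. Under this filter 94 of all miRNAs were called in either direction, and the share called higher was not counted. No member fell in any of these alternatives. Leaving out 1 library gave 26 to 30 members, 20 to 23 hairpins (21 with all), 24 to 28 seeds (27 with all), 0 to 1 arm ratios (0 with all; 1 without PZH replicate 3) and a gain in share of 0.0971 to 0.119 percentage points (0.107 with all). With seeds of bases 2 to 7, 26 rose. Same-numbered libraries had correlations of -0.15 to 0.08, so no pairing by number was visible. The labels state no pairing, and low correlations cannot show that there was none. A replicate block gave 26 members, 19 hairpins, 24 seeds, 0 arm ratios and 114 of all miRNAs in place of 129.

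Of the 30, 23 passed in every alternative in which they were tested, and 7 did not in at least 1: miR-376a-5p (in 11; among single libraries left out, called only without water 4, PZH 2 or PZH 4), miR-382-3p (11; called only without water 2, PZH 2 or PZH 4), miR-369-5p (10; called without water 1 or 5 or PZH 1 or 2), miR-299a-5p (3; not without water 1, water 3 or PZH 3), miR-376b-5p (3; not without water 5 or PZH 3), and miR-381-3p and miR-369-3p with the block (adjusted p = 0.0538 and 0.0660). miR-494-3p, at a log2 fold change of 0.01, took the other sign with limma-voom (-0.01), with the block (-0.0029), and without water replicate 2 (-0.01), 3 (-4.9e-04), 4 (-0.0046) or 5 (-0.06) or PZH replicate 1 (-0.06), 5 (-0.03) or 6 (-0.06); it was highest at 0.14, without water replicate 1. miR-666-5p did so without PZH replicate 2 (0.02) and was lowest without PZH replicate 4 (-0.22). The cause was not tested. Of the 10 members not called, 8 had a mean under 3 CPM, against 5 of the 30 called. Whether depth sets which calls are lost was not tested.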

Other observations

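Imprinted miRNAs on other chromosomes did not share one direction. Of 10 such rows 5 were tested. miR-335-5p, from Mest on the paternal chromosome, fell from 1207 ± 249 to 706 ± 154 CPM (SD, n = 6 each; log2 fold change -0.77, edgeR adjusted p = 0.00306), while its other arm, miR-335-3p, rose from 185 ± 22.6 to 250 ± 29.8 CPM (log2 fold change 0.44, edgeR adjusted p = 0.00755). miR-296-3p, from the Gnas region, rose from 3.19 ± 1.64 to 6.72 ± 2.23 CPM (log2 fold change 1.09, edgeR adjusted p = 0.0281). Its partner arm miR-296-5p (2.38 ± 0.858 and 2.69 ± 1.14 CPM) and miR-298-5p (2.17 ± 1.05 and 3.81 ± 0.846 CPM) did not pass.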
